A study of Populus davidiana with 6 samples.

Results

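In 158 of the 10268 poplar genes examined, the most abundant transcript in the leaves of air-dried plants was a different one from the most abundant transcript in control leaves. These genes are named here by what chose them, a change of main transcript in step with drying. The choice went as follows. Genes with a POPTR identifier, 2 to 14 transcripts, at least 1 annotated transcript and a summed level of at least 5 FPKM in each of the 6 libraries were kept, which left 10268 of the 40537 genes in the tables. In each library the transcript with the highest FPKM (fragments per kilobase of transcript, scaled to the mapped fragments of the library) was taken as the main one. A gene was chosen when 1 transcript was the main one in all 3 control libraries and another was the main one in all 3 air-dried libraries. The transcript that led in controls is called A and the one that led after air-drying is called B. The deposited levels chose the genes, so the values of A and B are a description and are not evidence that drying changed them.

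The study sequenced leaf RNA of Populus davidiana, an aspen, cultivar Seogwang15, which the labels give as drought-sensitive. The plants were seedlings of about 6 weeks, multiplied from internode cuttings and kept in sterile culture with sucrose and the auxin naphthalene acetic acid. The 3 air-dried samples came from plants lifted from the medium, rinsed and kept in the open for about 10 min, and the 3 control samples from plants without that treatment. Whether control plants were also uprooted and rinsed is not stated. The labels do not say either that each sample was a separate plant, so the tests speak of the variation among these 6 samples, part of which may be technical. The poly(A) libraries were sequenced as read pairs of 100 bp.

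A plant gene can give several messenger RNAs. Transcription can start at different promoters, introns can be removed or kept (a retained intron is a common form of alternative splicing in plants), and the RNA can be cut and polyadenylated at different sites. A different start or end can alter the untranslated regions or remove part of the coding sequence, and a retained intron often brings a premature stop codon. Splicing of plant messenger RNAs is known to respond to heat, cold, drought and light. The name column of the tables was empty (0 names) and no gene functions were used here, so the genes are given by position in the coordinates of the deposited tables, whose genome build is not given in the sources used here, and leaf markers were not checked. Reads were assigned to transcripts by the authors. Fragments that fit several transcripts of a gene have to be divided by estimation, and the division can fall near 0 for one of them. Of the 1896 values of A and B over all genes and libraries, only 1 was exactly 0, but B was below 0.1 FPKM in all controls in 13 genes and A in all air-dried libraries in 6. Such values are described as below 0.1 FPKM and no fold is given against them.

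The main transcript was harder to fix in some libraries than in others. Controls 2 and 3 had the same main transcript in 89.3% of the 10268 genes and air-dried 2 and 3 in 90.2%, whereas control 1 shared it with controls 2 and 3 in 77.8% and 78.6% and air-dried 1 with air-dried 2 and 3 in 83.4% and 83.1%. Between air-dried 2 or 3 and control 2 or 3 the share was 85.4% to 86.3%. The replicate 1 libraries also held 93 (air-dried 1) and 191 (control 1) transcripts above 10000 FPKM, against 12 to 18 in the other 4. They stood apart in the gene sums too, as log2(FPKM + 1) over 22818 genes. Control 1 correlated with controls 2 and 3 at r = 0.663 and 0.665, and air-dried 1 with air-dried 2 and 3 at 0.831 and 0.815. Between air-dried 2 or 3 and control 2 or 3, r was 0.904 to 0.916. Control 1 was thus less like the other controls than air-dried 2 and 3 were. A single main transcript was kept by all 3 air-dried libraries in 8128 genes (79.2%) and by all 3 controls in 7598 (74.0%). Both held in 6667 genes, of which 6509 had the same main transcript throughout and 158 had the change. The 158 are 1.54% of the genes examined. The ranking of transcripts is made within a library and does not change when a library is rescaled, but the limit of 5 FPKM does depend on the scale.

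By the rule, B exceeded A in every air-dried library and A exceeded B in every control library of the 158 genes. By mean FPKM, A was not lower in air-dried leaves in 6 genes and B was not higher in 7. The median share of the summed FPKM of a gene held by B was 62.3% in air-dried leaves and 25.4% in control leaves. For A it was 28.2% in air-dried leaves and 63.6% in control leaves. In genes with more than 2 transcripts, the remaining ones together held a median of 6.44% in air-dried and 7.34% in control leaves. By these medians, A and B made up most of the sum. Library by library, the median of B as a share of A and B together was 72.0%, 65.9% and 68.3% in air-dried 1, 2 and 3, against 20.1%, 36.3% and 37.8% in controls 1, 2 and 3. Control 1 was the most extreme library, with B below 0.1 FPKM in 56 genes, against 25 in control 2 and 23 in control 3. A was below 0.1 FPKM in 21, 7 and 17 genes in air-dried 1, 2 and 3. On the log2 scale of (B + 1)/(A + 1), the median difference between air-dried and control was 2.38 with all libraries and 1.80 without both replicate 1 libraries.

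**Figure D1:**
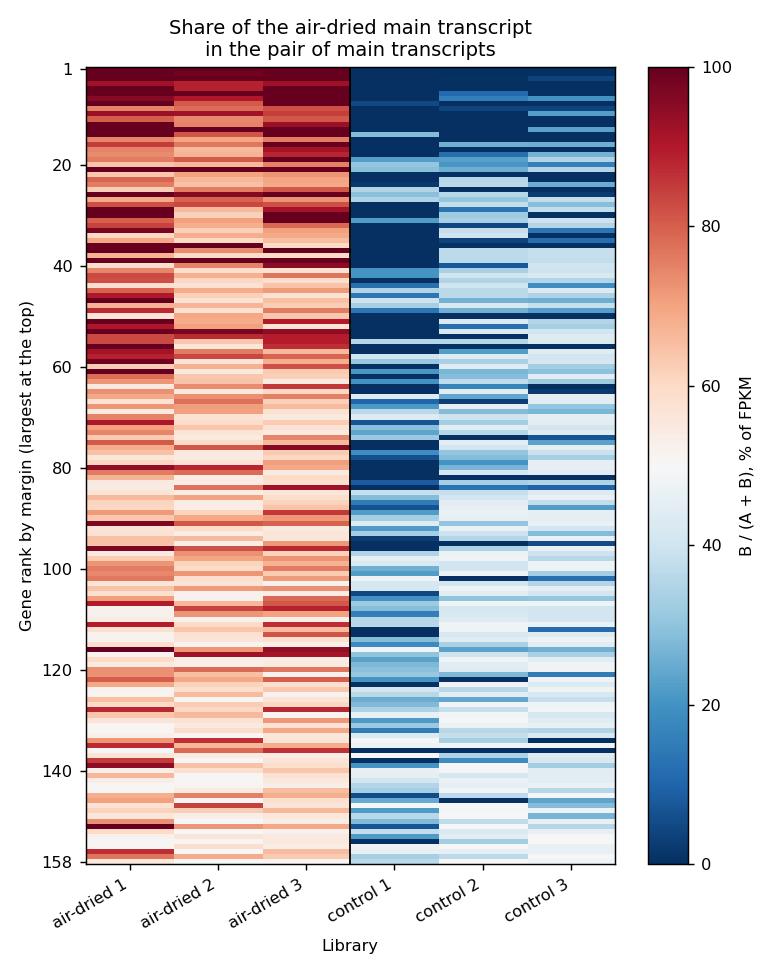
Share of B in the FPKM of A and B together (colour, %), for each of the 158 genes (rows, ordered by margin) in the 3 air-dried and the 3 control libraries (columns). By the choice of genes B holds the larger part in every air-dried cell and the smaller part in every control cell; the strongest contrasts are at the top and in the replicate 1 libraries, and the lower part of the map is pale because A and B were close to equal.

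How clear the change was differed widely between genes. The lead of the main transcript over the other of A and B was taken as log2((main + 1)/(other + 1)). The margin of a gene is the smallest such lead in any of the 6 libraries, and further transcripts of the gene do not enter it. It had a median of 0.22 and was at least 1 in 16 genes, at least 0.5 in 37 and under 0.1 in 44. The margin was set by air-dried 2 in 42 genes, control 3 in 40, control 2 in 39, air-dried 1 in 21, air-dried 3 in 11 and control 1 in 5. When the main transcript had to be at least 1.5 times the next one in every library, 30 genes were left.

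In the 3 genes with the largest margins, A was nearly lost in air-dried leaves and B was nearly absent from control leaves. POPTR_0010s05680.r1 (chromosome 10, 7171931 to 7173107, plus strand) has 4 transcripts, and both A (POPTR_0010s05680.3) and B (POPTR_0010s05680.2) are annotated. A was below 0.1 FPKM in all 3 air-dried libraries, against 36.3, 18.4 and 24.1 FPKM in controls 1, 2 and 3. B had 20.4, 19.9 and 21.5 FPKM in air-dried 1, 2 and 3 and was below 0.1 FPKM in every control. The groups did not overlap for either transcript. Both transcripts start and end at the same bases, so they can differ only inside. The sum of the gene was 21.5 ± 0.391 FPKM in air-dried and 30.3 ± 8.78 FPKM in control leaves (SD, n = 3 each), and control 1 had the highest sum.

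POPTR_0022s00790.r1 lies on the minus strand of an unplaced scaffold, from 387750 to 389753, and again has an annotated A and an annotated B with the same ends. B had 29.9, 28.4 and 29.4 FPKM in air-dried 1, 2 and 3, and was below 0.1 FPKM in the controls. A was below 0.1, at 0.545 and below 0.1 FPKM in air-dried 1, 2 and 3, against 40.1, 35.6 and 31.4 FPKM in the controls. B held 93.4% of the sum in air-dried 2, the library in which A was still measured, and the groups did not overlap for either transcript.

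POPTR_0008s17020.r1 (chromosome 8, 11445517 to 11456841, plus strand) has 13 transcripts, and A and B were both added by the assembly. A was below 0.1 FPKM in every air-dried library, against 33.2, 23.7 and 20.8 FPKM in controls 1, 2 and 3. B had 12.4, 19.4 and 16.0 FPKM in air-dried 1, 2 and 3, against less than 0.1, 0.154 and 0.761 FPKM in the controls. B begins 195 bp downstream of A and ends at the same base. Here B held only 41.7% ± 7.56 of the sum after air-drying (SD, n = 3), since other transcripts of the gene took the rest.

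POPTR_0010s15780.r1 differed from these in that A kept part of its level and the sum was much higher. It has 2 transcripts (chromosome 10, 14895739 to 14896369, plus strand). A, added by the assembly, had 19.5, 16.1 and 11.1 FPKM in air-dried 1, 2 and 3, against 17.8, 22.9 and 25.2 FPKM in controls 1, 2 and 3, and these groups overlapped. B is an annotated model of only 249 bp inside the span of A, and had 222, 124 and 132 FPKM in the air-dried libraries, against less than 0.1 FPKM in every control. The sum was 175 ± 57.7 FPKM in air-dried leaves and 21.997 ± 3.81 FPKM in control leaves (SD, n = 3 each), the largest difference of a sum among the 158 genes (2.90 on the log2(FPKM + 1) scale). FPKM divides by transcript length, and B spans only 249 bp. The part this has in the sum was not tested. The identifier of A, POPTR_0010s15780.1.r1.=, is that of B, POPTR_0010s15780.1, with a suffix. Whether A and B differ in structure within those 249 bp was not examined.

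In the 8 genes that follow in margin B was at or near 0 in at least 1 control, while A was lost in some and kept in part in others. The gene of chromosome 1 from 5435087 to 5437630, with 2 transcripts, had B at 43.6, 37.6 and 41.0 FPKM in air-dried 1, 2 and 3 and below 0.1 FPKM in every control. Its annotated A was below 0.1, at 4.87 and below 0.1 FPKM in air-dried 1, 2 and 3, against 43.0, 38.8 and 34.6 FPKM in the controls. B starts 166 bp downstream, and the sum of the gene hardly differed, with 42.3 ± 1.31 FPKM in air-dried and 38.8 ± 4.24 FPKM in control leaves (SD, n = 3 each).

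In the minus-strand gene of chromosome 15 from 7502589 to 7508633, the added B had 12.2, 14.9 and 15.4 FPKM in air-dried 1, 2 and 3, against less than 0.1, 1.70 and less than 0.1 FPKM in the controls. Its A was below 0.1 FPKM in every air-dried library, against 9.70, 13.5 and 14.97 FPKM in the controls. A and B share both ends, and the sum was 14.5 ± 2.00 FPKM in air-dried and 14.3 ± 1.47 FPKM in control leaves (SD, n = 3 each).

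A more abundant gene lies on chromosome 9 from 12399007 to 12399916. Its B had 266, 292 and 317 FPKM in air-dried 1, 2 and 3, against less than 0.1, 37.9 and 47.8 FPKM in controls 1, 2 and 3. Its A had 13.0, 31.7 and less than 0.1 FPKM in the air-dried libraries, against 262, 209 and 193 FPKM in the controls. The replicates disagreed on how complete the exchange was, control 1 giving B almost nothing, but neither transcript overlapped between the groups. B begins 199 bp downstream of A.

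On chromosome 16, the gene from 8266057 to 8267647 has an annotated A and an annotated B, and B begins 101 bp upstream of A. B had 67.2, 46.5 and 55.0 FPKM in air-dried 1, 2 and 3, against 1.71, less than 0.1 and less than 0.1 FPKM in the controls. A was below 0.1, at 11.1 and below 0.1 FPKM in the air-dried libraries, against 32.2, 37.0 and 39.3 FPKM in the controls. The sum was also higher, at 78.2 ± 11.4 FPKM in air-dried and 36.8 ± 2.73 FPKM in control leaves (SD, n = 3 each).

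A second gene of chromosome 1, from 30054781 to 30057881, kept its sum while its B, which begins 70 bp upstream of A, had 227, 296 and 305 FPKM in air-dried 1, 2 and 3, against less than 0.1, 15.2 and 13.8 FPKM in the controls. A stayed well above 0, with 76.0, 83.7 and 65.5 FPKM in the air-dried libraries, against 297, 386 and 369.9 FPKM in the controls. The sums were 354 ± 44.1 FPKM in air-dried and 361 ± 56.1 FPKM in control leaves (SD, n = 3 each).

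On chromosome 11, the gene from 156862 to 157809 changed from an added to an annotated transcript, which starts 104 bp and ends 212 bp upstream of A. B had 14.6, 15.3 and 13.3 FPKM in air-dried 1, 2 and 3, against less than 0.1, less than 0.1 and 4.08 FPKM in the controls, and A had 1.10, 1.33 and 2.44 FPKM in the air-dried libraries, against 16.6, 13.5 and 14.02 FPKM in the controls. The sum was the same within its spread, 16.0 ± 0.523 FPKM in air-dried and 16.1 ± 2.34 FPKM in control leaves (SD, n = 3 each).

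With 10 transcripts, the gene of chromosome 14 from 10090092 to 10091972 is more complex. Its B, which ends 437 bp upstream of A, had 330.4, 165 and 249 FPKM in air-dried 1, 2 and 3 and was below 0.1 FPKM in every control. A had 82.2, 58.1 and 58.0 FPKM in the air-dried libraries, against 141, 129 and 145 FPKM in the controls. A remained clearly present in air-dried leaves, and neither transcript overlapped between the groups.

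Last among the 12, a gene of chromosome 6 from 25263103 to 25266262 with 2 transcripts that share both ends had B at 21.7, 17.5 and 21.6 FPKM in air-dried 1, 2 and 3 and below 0.1 FPKM in every control. Its annotated A was below 0.1, 5.94 and 1.54 FPKM in the 3 air-dried libraries, against 26.1, 24.3 and 21.8 FPKM in the controls. The sums were 22.7 ± 0.896 FPKM in air-dried and 24.1 ± 2.20 FPKM in control leaves (SD, n = 3 each).

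**Figure D2:**
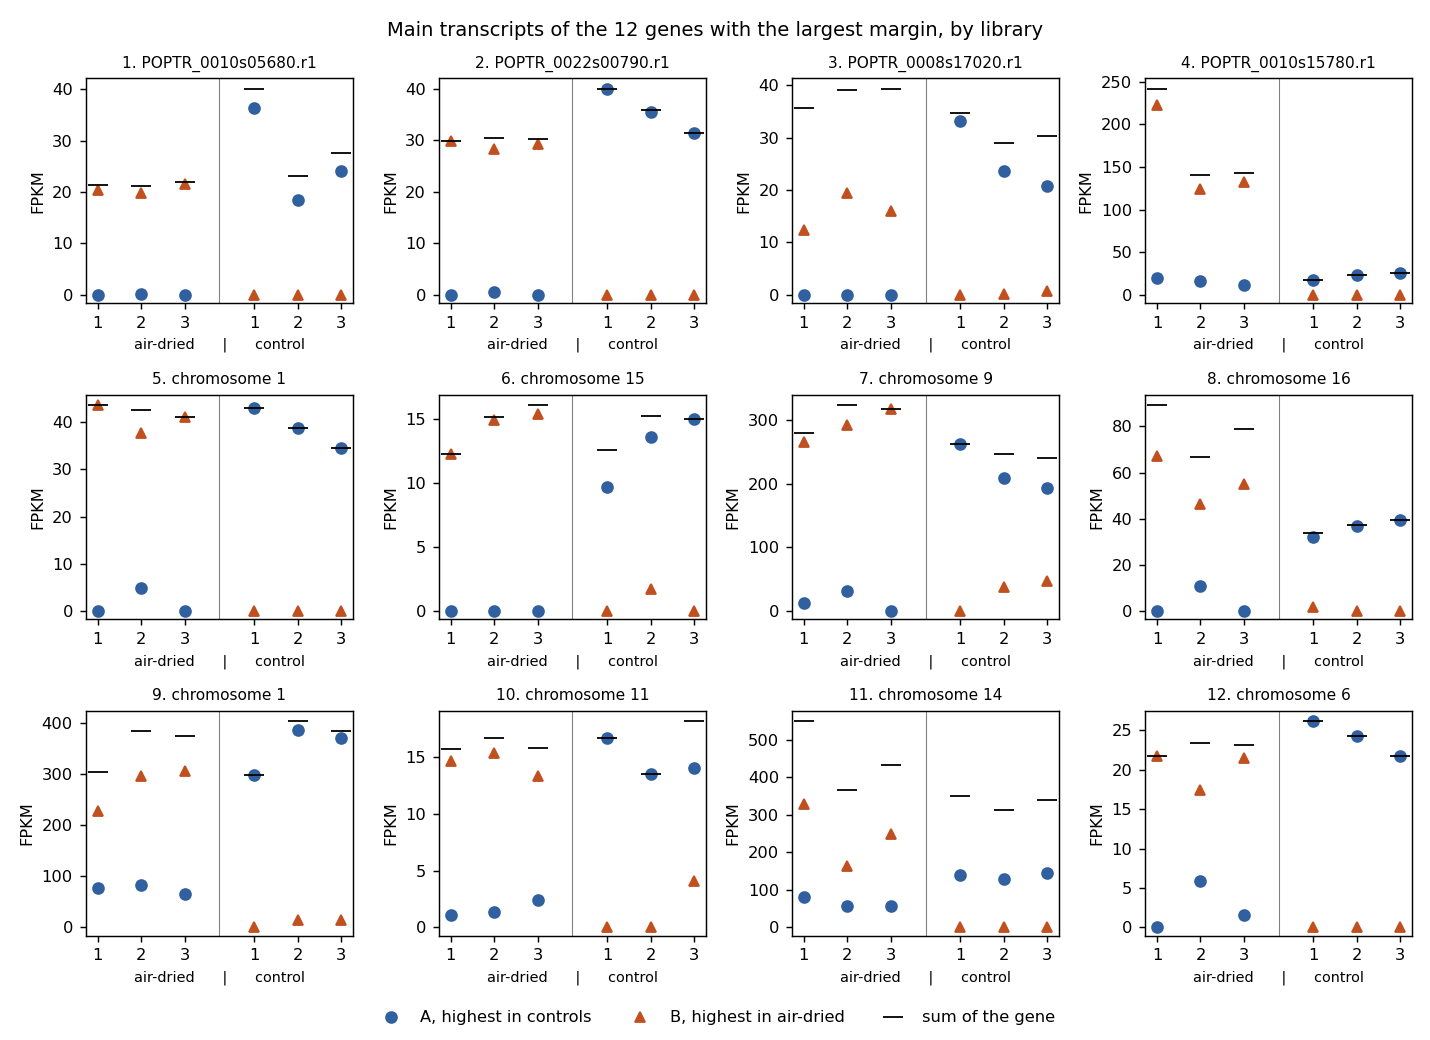
FPKM of A (circles), B (triangles) and the sum of all transcripts of the gene (dashes) in air-dried 1 to 3 (left of each panel) and control 1 to 3 (right), for the 12 genes with the largest margin in order of rank; each panel has its own axis. In POPTR_0010s05680.r1 and POPTR_0022s00790.r1 circles and triangles trade places and every air-dried sum lies below every control sum, whereas in POPTR_0010s15780.r1 the triangles stand at 124 to 222 FPKM after air-drying, while the circles of the groups overlap.

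The 8 genes next in margin included 6 in which both transcripts were separated between the groups and 2 in which only B was. In the gene of chromosome 1 from 27434672 to 27436739, A was below 0.1 FPKM in every air-dried library, against 5.77, 11.8 and 7.66 FPKM in the controls, and B began 232 bp downstream. In the gene of chromosome 18 from 9763218 to 9767301, B held 88.0% ± 10.0 of the sum in air-dried and 8.47% ± 14.5 in control leaves (SD, n = 3 each), and the large control SD came from control 1, where B had 17.0 FPKM. A different kind was the gene of chromosome 2 from 10482578 to 10484866, which had B at 305, 215 and 242 FPKM in air-dried 1, 2 and 3 and below 0.1 FPKM in every control, while its A, with 104, 92.9 and 78.7 FPKM in air-dried and 121, 99.7 and 99.6 FPKM in control libraries, overlapped between the groups. Its B ends 1223 bp upstream of A, so the transcript with the higher level in air-dried leaves is the one with the shorter span. Likewise, the gene of chromosome 6 from 25817432 to 25819111 had a sum of 27.4 ± 1.33 FPKM in air-dried and 6.29 ± 1.37 FPKM in control leaves (SD, n = 3 each), with A overlapping between the groups. In the gene of chromosome 1 from 23952588 to 23957028, B had 82.6, 76.3 and 105 FPKM in air-dried 1, 2 and 3 and below 0.1 FPKM in every control, and it began 473 bp downstream of A. The remaining ones, on chromosome 9 from 7676904 to 7677784, chromosome 13 from 4697686 to 4699083 and chromosome 9 from 3367081 to 3371240, had B at 60.2% ± 8.68, 85.5% ± 12.8 and 68.7% ± 5.84 of the sum in air-dried leaves, against 11.8% ± 12.02, 26.8% ± 7.26 and 22.5% ± 7.496 in control leaves (SD, n = 3 each). Of the 20 genes with the largest margin, 8 have only 2 transcripts, and in 14 the sum differed by less than 0.5 on the log2(FPKM + 1) scale.

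Both main transcripts were annotated in 12 genes, so neither A nor B is a model added by the assembly there. Their levels were still estimated beside any added transcripts of the gene. Beyond the 4 already described (both leading genes, the chromosome 16 gene and the chromosome 13 gene), the lead was smaller in each. In the gene of chromosome 2 from 5150959 to 5157432, B had 13.8, 17.0 and 15.9 FPKM in air-dried 1, 2 and 3, against 3.55, 4.54 and 0.295 FPKM in the controls, while A was below 0.1, 0.704 and below 0.1 FPKM in air-dried and 8.72, 8.11 and 12.6 FPKM in the control libraries. On chromosome 6, the gene from 1067603 to 1069281 had B at 104, 56.8 and 56.7 FPKM in air-dried 1, 2 and 3, against 23.0, 26.6 and 25.6 FPKM in the controls, and B ends 964 bp upstream of A. Its A, at 40.2, 31.8 and 46.5 FPKM in the air-dried and 94.3, 44.5 and 54.0 FPKM in the control libraries, overlapped between the groups. A further gene of chromosome 1, from 13303817 to 13306129, is 1 of the 2 genes whose sum was at least 2-fold lower, with 14.7 ± 1.81 FPKM in air-dried and 34.2 ± 6.35 FPKM in control leaves (SD, n = 3 each). There A, at 3.54, 5.86 and 4.87 FPKM in air-dried and 23.9, 18.0 and 15.6 FPKM in control libraries, was reduced more than B, and B led although it was itself lower, at 9.05, 9.17 and 9.99 FPKM in air-dried and 17.6, 12.2 and 14.04 FPKM in control libraries. The other such gene, on chromosome 6 from 23669738 to 23672575, was named after its values were seen: its sum was 12.3 ± 3.53 FPKM in air-dried and 27.97 ± 8.76 FPKM in control leaves (SD, n = 3 each).

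The remaining annotated pairs had margins of 0.27 or less. In the gene of chromosome 1 from 8487836 to 8491249, B had 16.7, 14.3 and 15.4 FPKM in air-dried 1, 2 and 3, against less than 0.1, 2.88 and 5.01 FPKM in the controls, and its margin of 0.15 was set by control 3. In the genes of chromosome 1 from 31957527 to 31960153 and from 18427955 to 18432025, B held 61.6% ± 9.56 and 54.6% ± 4.30 of the sum in air-dried leaves, against 42.6% ± 2.71 and 30.3% ± 14.5 in control leaves (SD, n = 3 each). In the gene of chromosome 14 from 11308689 to 11310568, B stood at 68.5% ± 3.03 in air-dried and 37.4% ± 8.85 in control leaves, and the gene of chromosome 9 from 6052668 to 6056544 at 42.5% ± 10.6 in air-dried and 26.9% ± 4.15 in control leaves (SD, n = 3 each). In the last of these A and B differed by only 13.3 against 13.5 FPKM in air-dried 2.

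At the edge of the rule the main transcripts could hardly be ranked. The gene with the smallest margin, on chromosome 3 from 16085620 to 16087608, had both A and B at 52.7 FPKM in air-dried 2 and both at 40.5 FPKM in control 2. On chromosome 4 from 7133001 to 7140524 both transcripts had 2.14 FPKM in control 3, and on chromosome 1 from 35677292 to 35684588 A had 2.85 and B 2.87 FPKM in air-dried 2. By level, the members just above the limit of 5 FPKM were the chromosome 6 gene from 25817432, whose lowest sum was 5.07 FPKM in control 2, the chromosome 4 gene from 7133001 (5.10 FPKM in air-dried 1) and a gene of chromosome 2 from 3510297 to 3513293 (5.61 FPKM in air-dried 1). Just below it, genes with the same kind of change on chromosome 6 from 3970851 to 3974496, chromosome 18 from 1836119 to 1838128 and chromosome 1 from 46618892 to 46625216 had lowest sums of 4.89, 4.86 and 4.74 FPKM and were left out.

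The change of main transcript came about in 3 ways. In 89 genes A was lower and B higher in all 3 air-dried libraries than in every control. In 39 genes only B was separated in this way, and in 25 only A was. In 5 genes neither was, and only the ratio of A to B separated the groups. Over both kinds together, A lay lower without overlap in 114 genes and B higher in 128. Among all 23852 transcripts with a mean of at least 1 FPKM in the genes examined, 12.4% lay lower in this way and 13.4% higher. The rule favours such separation, so the counts are not set against these shares. The gain of B in mean FPKM was larger than the loss of A in 97 genes and smaller in 61.

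**Figure D3:**
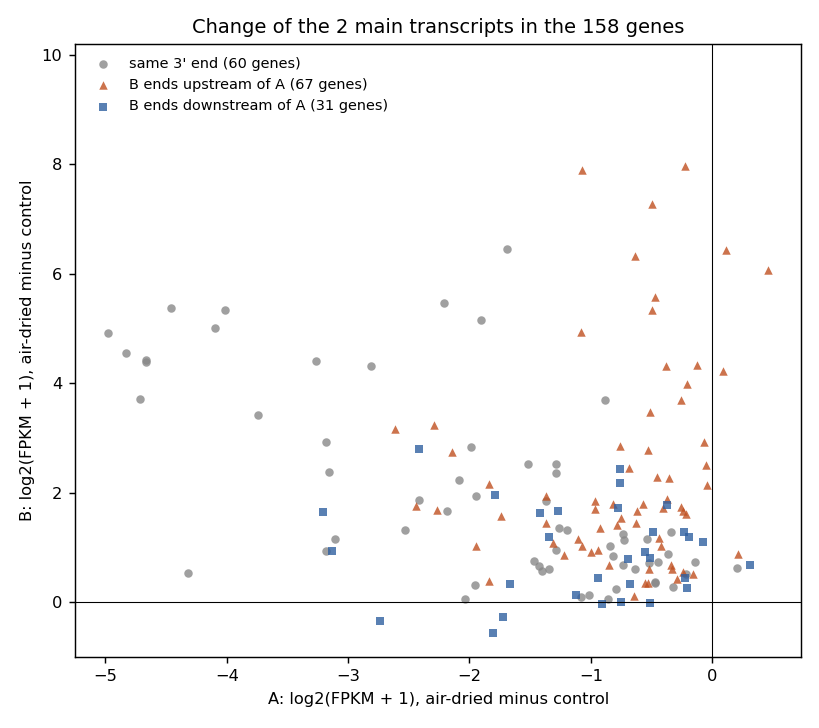
Difference of A (x axis) and of B (y axis) between air-dried and control leaves, each as the mean of log2(FPKM + 1) over 3 libraries, for the 158 genes; symbols give where the 3' end of B lies relative to that of A. Grey points (same 3' end, 60 genes) reach far to the left, where A is nearly lost, while the triangles (B ends upstream, 67 genes) stay closer to the vertical axis; among them A lay lower without overlap in 39 genes and only B was separated in 27.

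The sum consists mainly of A and B, so its direction follows in part from how these kinds are defined, and it is given as a description. Where only B was separated, the sum was higher in air-dried leaves in 38 of 39 genes (median 0.50 on the log2(FPKM + 1) scale). Where only A was, it was lower in 23 of 25 (median -0.27), and where both were, the median was 0.10. Over all 158 genes the median was 0.11, against 0.02 over the 10268 genes examined, and the sum differed by less than 0.5 in 111 (70.3%), against 92.1% of the genes examined. It was at least 2-fold higher in 12 genes and at least 2-fold lower in 2. The 3 air-dried sums lay above all 3 control sums in 58 genes and below them in 21, against 19.6% and 16.2% of the genes examined. FPKM divides by transcript length, so the same number of fragments gives a higher FPKM in a shorter transcript. Spliced lengths are not in the tables, and the part this has in the sums was not tested.

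The ends of the transcripts, which the rule did not use, differed in direction. Relative to A, B ended upstream in 67 genes, at the same base in 60 and downstream in 31, so among the 98 genes whose 3' ends differed B more often had the upstream end. The distance was large: B ended at least 500 bp upstream in 50 genes and at least 500 bp downstream in 16. At the 5' end the pattern was weaker and in the other direction, with B starting downstream of A in 45 genes, at the same base in 79 and upstream in 34. B spanned less of the genome than A in 91 genes, more in 47 and the same in 20. The median span was 2596.5 bp for B and 2960.5 bp for A.

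**Figure D4:**
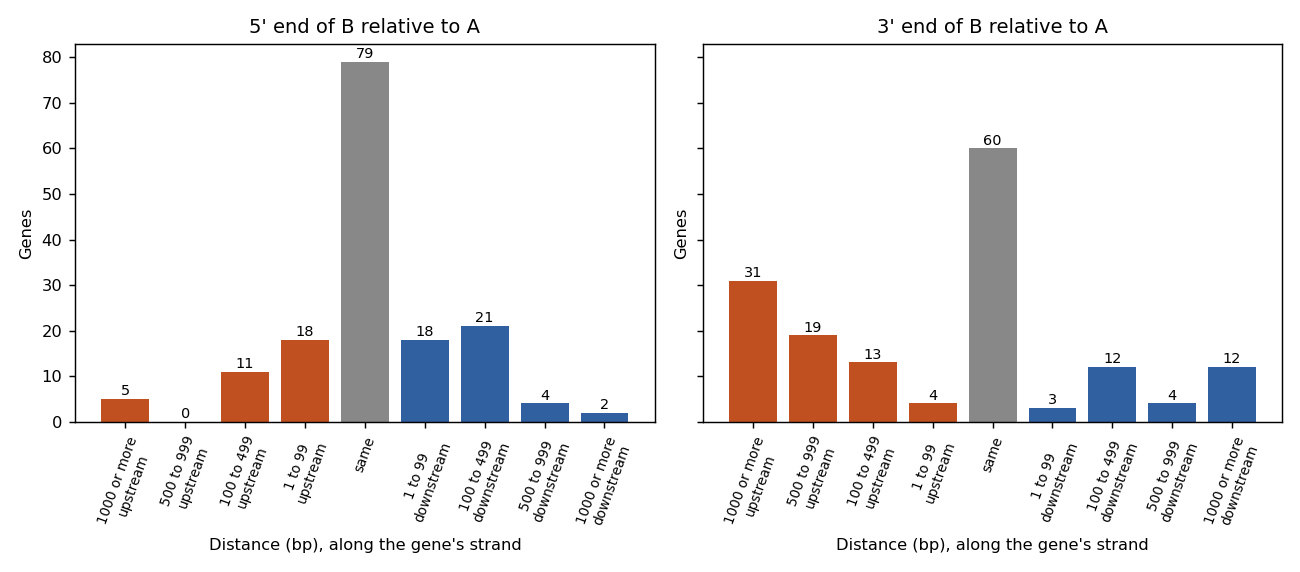
Number of genes by the distance of the 5' end (left) and the 3' end (right) of B from that of A, along the gene's strand; bars left of the grey bar have B upstream. At the 3' end 31 genes lie 1000 bp or more upstream and 12 lie 1000 bp or more downstream, while at the 5' end only 5 and 2 genes do.

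The kinds of end difference can be set beside those between the leading transcripts of other genes. Only the 3' end differed in 37.3% of the 158, only the 5' end in 25.3%, both in 24.7% and neither in 12.7%. In the 6509 genes with a constant main transcript, the main one and the runner-up differed only at the 3' end in 16.5%, only at the 5' end in 32.2%, at both in 15.1% and at neither in 36.2%. In the 3601 genes without a settled main transcript, the leading pair by mean level gave 24.4%, 33.0%, 23.4% and 19.2% in that order. No test was made on these shares.

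Genes in which B ended upstream of A were mostly those with a higher sum. The sum was higher in air-dried leaves in 54 of these 67 genes (median 0.33 on the log2(FPKM + 1) scale), in 17 of the 31 in which B ended downstream (median 0.02) and in 28 of the 60 with the same 3' end (median -0.04). Because FPKM divides by transcript length, the position of the ends and the sum are not independent measures. The part of length in this pattern was not tested. Of the 39 genes in which only B was separated between the groups, B ended upstream in 27, downstream in 8 and at the same base in 4. Of the 25 in which only A was, the numbers were 4, 7 and 14. The chromosome 2 gene from 10482578 is 1 example of the first kind. A gene of chromosome 13 from 2479259 to 2483357, named after its values were seen, is another: its annotated B spans 309 bp and ends 3662 bp upstream of A, and it had 109, 143 and 161 FPKM in air-dried 1, 2 and 3, against 38.0, less than 0.1 and less than 0.1 FPKM in the controls. A there had 65.8, 46.3 and 37.6 FPKM in air-dried and 70.2, 65.7 and 70.8 FPKM in control libraries. In 1 gene, on chromosome 10 from 6700803 to 6707530, A and B did not overlap at all: B ends 6050 bp upstream of A and spans 678 bp, and had 11.5, 17.7 and 27.1 FPKM in the air-dried libraries, against less than 0.1, 2.66 and 8.90 FPKM in the controls. The identifier of this B begins with CUFF and carries no POPTR name. Whether it belongs to the same gene as A or to a neighbour was not tested. It is counted among the 67 genes in which B ended upstream.

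The direction of the 3' ends was also measured in genes that the rule did not choose. For each gene and library the 3' ends of all its transcripts were averaged with their FPKM as weights. Among 4674 other genes with more than 1 distinct 3' end, this mean lay upstream in all 3 air-dried libraries relative to all 3 controls in 613 (13.1%) and downstream in 360 (7.7%). By group means 2568 lay upstream and 2076 downstream. The excess was larger between replicates 2 and 3, with 2682 upstream and 1957 downstream, than between air-dried 1 and control 1, with 2391 and 2228. For the 5' end, 547 of 6229 other genes (8.78%) lay upstream without overlap and 708 (11.4%) downstream. This comparison was added after the ends of A and B had been seen. Genes share libraries and are not independent, so no test was made. RNA quality is known only as a minimum from the labels, so its part in the position of the 3' ends was not tested.

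A was an annotated transcript in 84 of the 158 genes (53.2%) and B in 58 (36.7%), against 70.6% of the constant main transcripts in the 6509 genes. In the 3601 genes without a settled main transcript, the first by mean level was annotated in 47.2% and the second in 30.4%. The change went from an annotated A to an added B in 72 genes, from an added A to an annotated B in 46, between added transcripts in 28 and between annotated ones in 12. With annotated transcripts alone, and the levels not estimated anew, 14 of 1282 genes changed their main transcript, and 12 of these are among the 158. At the 3' end, B ended upstream in 36 and downstream in 17 of the 72, upstream in 22 and downstream in 9 of the 46, and upstream in 7 and downstream in 3 of the 28. In the 12 with both annotated there was no such excess, with 2 upstream and 2 downstream. At the 5' end the direction went with the annotation: B started upstream in 21 and downstream in 6 of the 72 but upstream in 3 and downstream in 25 of the 46.

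The 158 genes were spread over the genome. They lay on all 19 chromosomes, with 155 there and 3 on unplaced scaffolds, and 80 on the plus and 78 on the minus strand. Chromosome 1 had the most, 22 of 1204 examined (1.83%), and the share was 2.15% on chromosome 6, the highest, and 0.838% on chromosome 7, the lowest. The number of transcripts had a median of 4, as in all genes examined, and 24.1% had only 2, against 24.2%. The mean level over the 6 libraries had a median of 28.6 FPKM, against 19.7 FPKM in all genes examined. Another gene with a mean of at least 1 FPKM overlapped 13 of them (8.23%), against 7.96% of those examined, and, since no stranded kit is stated, fragments from such neighbours cannot be told apart.

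A fit across all genes set the difference between the groups against the spread between libraries. The rule had chosen the 158 by the same contrast, so the calls among them are a description and no test of the changes. limma was run on each transcript's log2 ratio to the rest of its gene, over 23852 transcripts of the 10268 genes, with Benjamini-Hochberg adjustment and a threshold of 0.05. In 23 of the 158 genes A was called lower or B higher, and both were in 18. In a gene with 2 transcripts the ratio of B is the inverse of that of A, so both calls rest on 1 measurement. This nearly holds as well where the other transcripts of a gene have little of its sum. At least 1 transcript was called in 1.04% of the genes examined, and nothing is read from the comparison since the rule used the same contrast. B was called higher in 22 and A lower in 19, against 0.352% and 0.273% of the transcripts tested. The other changes did not pass this threshold. Without both replicate 1 libraries the number was 17 (1.3% of genes examined had a call), without air-dried 2 it was 15 (0.331%) and without air-dried 3 it was 13 (0.234%). Taken alone, limma on log2(FPKM + 1) called B higher in 32 genes and A lower in 19, against 1.59% and 0.789% of all 42451 transcripts tested. At least 1 of them was called in 43 genes (4.22% of all genes with a transcript tested had such a call), but in 25 without air-dried 2 (1.11% of all genes), 19 without air-dried 3 (0.831%), 27 without control 2 (1.47%) and 26 without control 3 (1.37%). Without both replicate 1 libraries it was 56, where 6.37% of genes had a call. The summed level was called higher in 21 of the 158 genes and lower in 10, against 5.39% and 2.62% of 22818 genes tested. These 31 calls became 9 without air-dried 2 (2.08% of all genes called, against 8.02% with all libraries), 5 without air-dried 3 (2.03%), 11 without control 2 (3.18%), 12 without control 3 (2.85%) and 48 without both replicate 1 libraries, where 13.7% of genes were called.

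The rule was finally applied to 4 libraries at a time, so that the main transcripts of the remaining pair had no part in choosing the genes; the limit of 5 FPKM still applied to all 6 libraries. Chosen on replicates 2 and 3, 483 genes changed their main transcript (496, or 4.64%, when the limit of 5 FPKM also applied to those 4 libraries alone). In air-dried 1 the main transcript was B in 58.4% and A in 35.8% of them, and in control 1 it was A in 62.1% and B in 27.3%. Both held, as in the other 4 libraries, in 158 (32.7%), and the exchange was the other way round in 28 (5.80%). With the pair of replicate 2 left out, 158 of 366 genes (43.2%) showed the same exchange in that pair and 24 (6.56%) the opposite one. With the pair of replicate 3 left out, it was 158 of 327 (48.3%) and 12 (3.67%). The 158 are the same genes in all 3 cases, since a gene with the same exchange in the left-out pair meets the full rule. The percentages with the same exchange therefore differ only in the number of genes chosen, and they are not separate replications. In the same pairs, 81.0%, 96.7% and 96.3% of the genes with 1 constant main transcript in the other 4 libraries kept it. The ratio of B to A was higher in the air-dried library of the left-out pair in 71.6%, 77.0% and 82.3% of the chosen genes. Its median difference there, on the log2 scale, was 1.05, 0.71 and 0.86 for pairs 1, 2 and 3, against 1.55, 2.42 and 2.44 in the libraries that chose the genes. Each pair holds 1 library per group and allows no test. Fewer than 50% of the genes chosen on 4 libraries showed the same exchange in the pair that was left out.

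**Figure D5:**
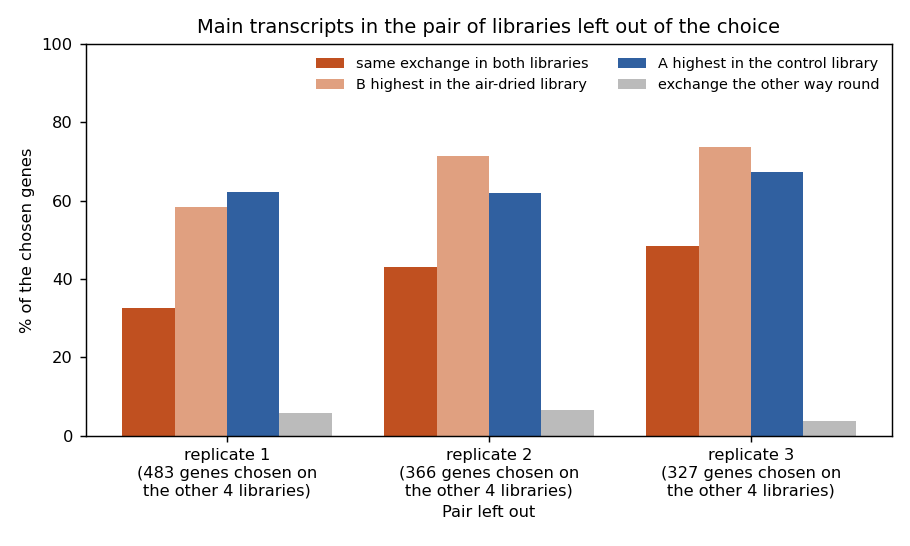
Share of the genes chosen on 4 libraries that showed, in the left-out pair, the same exchange in both libraries, B highest in the air-dried library, A highest in the control library, or the exchange the other way round. The same exchange was seen in 32.7%, 43.2% and 48.3% and the opposite one in 5.80%, 6.56% and 3.67% for the pairs of replicates 1, 2 and 3. The genes with the same exchange are the same 158 for each pair, by the definition of the rule.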

How the data were processed

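Leaf RNA-seq libraries (3 air-dried, 3 control) were analysed from 1 table per library with the same 112919 transcripts, 45773 of them annotated and 67146 added by the assembly. The values are FPKM per transcript, calculated by the authors, per the file headers. The submitters' processing notes name TopHat, Cufflinks and FastQC and give no version. No counts are given, so the depth is unknown and no counting interval can be given. Groups and replicate numbers came from the sample titles. Identical libraries were looked for and 0 pairs found. In 20 cases over the 10268 genes and 6 libraries the highest transcript was tied and the first was taken; no tie fell in the 158 genes (0 ties).

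Tests used limma 3.58.1 in R 4.3.3 with a mean-variance trend and Benjamini-Hochberg adjustment, on features with a mean of at least 1 FPKM and a pseudocount of 1: the log2 ratio of a transcript to the rest of its gene, log2(FPKM + 1) of a transcript, and that of a gene's sum. The fits were tested on simulated data: they estimated planted differences without bias of note and called very large ones mostly. With the spread of these data they missed planted log2 differences of 2 in transcript shares and most of those in transcript levels. A missing call there says little. The genes and all lists were chosen with earlier results of these data known. Described one by one were the 20 genes with the largest margin, further genes with an annotated A and B, and those at the edges of the rule. Identifiers are printed for the 2 leading genes with a higher and the 2 with a lower sum. Gene lists and tissue markers could not be matched without names. Alternatives were other pseudocounts, filters, scalings, level limits and transcript sets, a replicate block, and leaving out libraries.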

Additional observations from a re-analysis of the deposited data

How the results depend on the processing

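The rule gave 158 genes, 190 with a limit of 1 FPKM, 132 with a limit of 10 FPKM and 163 without an upper limit on transcripts, sets that contain one another by construction; with transcripts spanning at least 300 bp it gave 156. Annotated transcripts only gave 14 of the 1282 genes that then passed the limits (1.09%, against 1.54% by the main rule), and a lead of 1.5 times gave 30. Leaving out 1 library, which eases the rule, gave 220 to 301 genes (301 without air-dried 1, 287 without control 1, 262 without control 2 and 242 without control 3), and leaving out both replicate 1 libraries 496 of 10686 (4.64%). Genes called by the limma fits, among the 158, were 13 to 19 for shares, 5 to 32 for sums and 19 to 52 for transcript levels when 1 library was left out; the share of all genes called also moved, from 0.234% to 1.02% for shares, 2.03% to 8.95% for sums and 0.831% to 4.31% for levels. Without both replicate 1 libraries the sums gave 48 calls. A replicate block gave 0 genes for shares (0 of 23852 transcripts, of which 2638 had an unadjusted p under 0.05), 15 for sums and 13 for levels. Same-numbered libraries deviated together by r = 0.02, 0.04 and 0.01 for sums and 0.09, 0.05 and 0.03 for shares, under the 0.1 set for a pairing, so the numbers were not taken as pairs; for shares air-dried 3 correlated best with control 2. The cause of these changes was not tested. Other pseudocounts, no filter on low values, no mean-variance trend and median-of-ratios scaling kept each count within 1.5 times. The ranking by FPKM times transcript length was not run, for the tables hold no spliced lengths. With an unknown depth, values below 0.1 FPKM have no counting limit.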

Other observations

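Loci that the assembly joined from several gene models (identifiers starting with XLOC) lie outside the rule. Of 1601 such loci with an annotated transcript, at least 2 transcripts and a sum of at least 5 FPKM in every library, 27 (1.69%) had 1 main transcript in all controls and another in all air-dried libraries. In 15 of the 27, A and B carry the names of different annotated genes, and in 9 they do not overlap, so such a locus sets annotated neighbours against each other. One of them, chosen after its values were seen, is the one on chromosome 19 (14769653 to 14773619, minus strand). Its B had 94.4, 76.8 and 71.5 FPKM in air-dried 1, 2 and 3, against 30.3, 25.3 and 29.3 FPKM in the controls. Its A had 33.0, 31.9 and 31.3 FPKM in the air-dried libraries, against 52.2, 34.1 and 45.6 FPKM in the controls, and the groups did not overlap for either.

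Among the 250 POPTR genes with more than 14 transcripts at the same level limit, 76 had a settled main transcript within each group and 5 of these changed it (2% of the 250).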
